A study of Mus musculus with 9 samples.

Results

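Among 9 arrays of mouse striatum, 3 carried a strong signal of Ttr, which encodes transthyretin, the thyroid hormone carrier that the choroid plexus secretes into the cerebrospinal fluid. These 3 arrays, of 9 in all, were selected on that signal: an array belonged to them where the Ttr probe set stood at or above 10 on the log2 scale. They were control 3, acute 3 and chronic 3, and the other 6 arrays are those they are set against here. Ttr therefore describes the selection and is no finding. The same holds for any gene that differed between the 3 and the 6 arrays, so these differences are described without a test. The comparison is described as one of tissue content, which the labels do not give. It is not one of treatment, since each treatment group gave 1 array to the 3 and 2 to the 6.

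The study gave mice MPTP, a toxin of dopamine neurons, and measured total RNA of the striatum on single-colour expression arrays, with 3 arrays in each of 3 groups. Control mice received saline in 4 injections at intervals of 2 h, and their tissue was taken after 1 week. Acute MPTP mice had 4 injections of 20 mg/kg at the same interval, 80 mg/kg in total, and were sampled after 1 week. Chronic MPTP mice had 4 mg/kg once a day on 20 days, also 80 mg/kg in total, and were sampled after 8 weeks. The labels give no strain, age or genotype, do not tie an array to a single animal and do not describe the dissection. The spread between arrays may therefore be technical or animal to animal. The 3 arrays high in Ttr all carry the number 3 in their titles, and the labels do not say what that number stands for.

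The choroid plexus is an epithelium that hangs into the brain ventricles, including the lateral ventricle that borders the striatum. Its cells secrete cerebrospinal fluid by moving ions and water, carry vitamins and hormones across the barrier between blood and fluid, and release growth factors and carrier proteins. Kcnj13, an inwardly rectifying potassium channel, is made by this epithelium and by few other cells of the brain. Slc17a6 encodes VGLUT2, the vesicular glutamate transporter of thalamic and many hypothalamic neurons, whereas cortical neurons mainly use VGLUT1, the product of Slc17a7. Striatal projection neurons use GABA and are marked by dopamine receptors. In such bulk tissue a difference in the number of cells of a type and a difference in the RNA of each cell cannot be told apart.

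The log2 intensity of Ttr was 6.19, 9.07 and 12.56 on control arrays 1 to 3. On acute arrays 1 to 3 it was 8.41, 7.38 and 13.37, and on chronic arrays 1 to 3 it was 9.07, 7.38 and 10.85. The array just inside the threshold of 10 was chronic 3, at 10.85, and the highest outside it were control 2 and chronic 1, both at 9.07. The mean of the 3 arrays exceeded that of the 6 by 4.35 ± 1.51 on the log2 scale, which is 20.3-fold. Here and below, the error beside such a difference is the SD over the 3 treatment groups (n = 3) of the number 3 array minus the mean of arrays 1 and 2.

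Kcnj13 separated the same arrays. Its array values read 6.02, 6.23 and 8.57 in controls, 5.87, 6.02 and 10.24 after acute MPTP, and 6.18, 5.96 and 7.28 after chronic MPTP (in this order, arrays 1 to 3, as for all genes below). The 6 other arrays thus lay between 5.87 and 6.23, and the 3 arrays were all above them, acute 3 the highest and chronic 3 the lowest. The difference of means was 2.65 ± 1.55. Slc17a6 also separated them, at 7.19, 7.66 and 10.59 in controls, 6.68, 6.54 and 9.44 after acute MPTP, and 6.45, 6.42 and 8.51 after chronic MPTP. Its difference was 2.69 ± 0.56, and here control 3 was the highest of the 3.

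**Figure D1:**
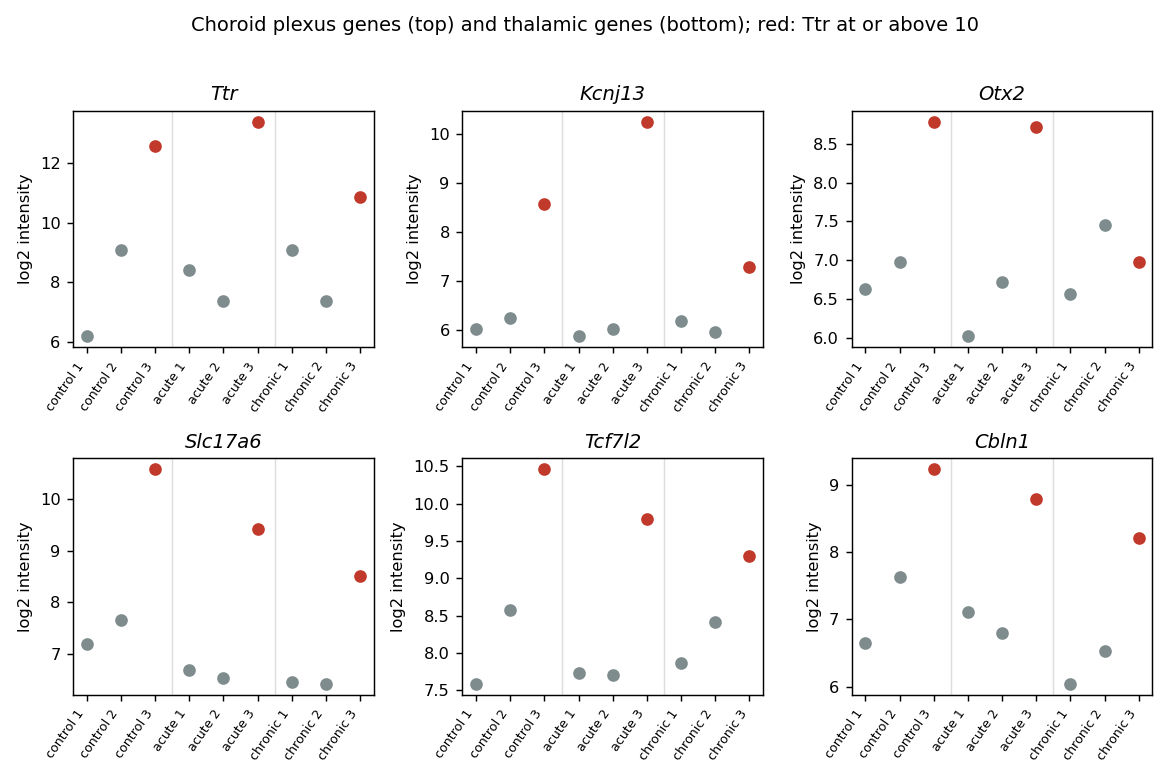
Log2 intensity (y axis) of 3 choroid plexus genes (Ttr, Kcnj13, Otx2) and 3 genes of thalamic neurons or thalamic inputs (Slc17a6, Tcf7l2, Cbln1) on each of the 9 arrays (x axis), 1 point per array, red where Ttr was at or above 10. Ttr and Kcnj13 were highest on acute 3, the lower 3 genes were highest on control 3, and Otx2 on chronic 3, at 6.98, lay within the range of the grey arrays.

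The upstream sequences of Kcnj13 and Slc17a6 are shown because Kcnj13 marks the choroid plexus and Slc17a6 the thalamus. They are the 250 bases before the annotated start, from RefSeq on GRCm38.p6, printed in the direction of transcription. Kcnj13 has 1 such window, at chr1:87394730-87394979 on the minus strand, and the first of 2 windows of Slc17a6 lies at chr7:51621580-51621829 on the plus strand.
Kcnj13: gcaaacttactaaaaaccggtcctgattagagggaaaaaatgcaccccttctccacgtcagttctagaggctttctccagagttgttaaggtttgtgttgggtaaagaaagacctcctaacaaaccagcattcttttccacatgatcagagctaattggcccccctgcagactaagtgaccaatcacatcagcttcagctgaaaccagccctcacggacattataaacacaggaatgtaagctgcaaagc
Slc17a6: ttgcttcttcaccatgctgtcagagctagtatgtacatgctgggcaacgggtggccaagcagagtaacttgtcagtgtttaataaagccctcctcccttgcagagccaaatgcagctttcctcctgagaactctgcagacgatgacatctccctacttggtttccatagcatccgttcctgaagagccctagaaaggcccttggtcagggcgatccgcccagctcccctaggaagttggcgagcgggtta
Neither window holds TAATCC, the core that OTX factors bind, or GTAAACA, a forkhead core, on either strand, and so no base is in capitals. Of 32851 such windows of all genes, 6.25% hold TAATCC and 3.17% hold GTAAACA. Of 61 windows found for 43 of the measured choroid plexus genes, 4 hold TAATCC (those of Abca4, Ace, Car14 and Otx2 itself), which is 6.56%, and 0 hold GTAAACA. No choroid plexus gene with TAATCC in its window had the 3 and the 6 arrays apart. Only 7 of the genes without overlap had a window, 11 windows in all. With so few windows, 0 with TAATCC says little beside the 6.25% of all windows. The thalamic genes had 20 windows, of which 1, of Tcf7l2, holds TAATCC.

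Over all 21780 probe sets with 1 gene symbol, 17 were at least 2-fold higher on the 3 arrays with no overlap with the 6 (0.0781%), and 13 were at least 2-fold lower with no overlap (0.0597%). Without the fold limit, 1007 probe sets were higher with no overlap (4.62%) and 802 were lower (3.68%), and the median difference over all probe sets was -0.01. The 17 higher probe sets belonged to 16 genes. They were Ttr, Kcnj13, 7 genes of the thalamus list, the homeobox gene Prox1 of the hippocampus list and 6 genes of no list. The count depended on chronic 3: it was 56 with that array left out and 13 without control 3.

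The label of these arrays as rich in choroid plexus was set beside 4 lists of choroid plexus genes, of which 50 genes were measured. Of these, 47 had a higher mean on the 3 arrays, with a median difference of 0.38. No overlap was seen for 9 of the 50 (beside 4.62% of all probe sets), and 2 (Ttr and Kcnj13) also passed 2-fold (beside 0.0781%). Since Ttr chose the arrays, the other 49 were also read alone: 46 were higher, 8 had no overlap, 1 (Kcnj13) passed 2-fold and the median was 0.36. The lists were chosen with earlier results of these data known, so these genes describe the arrays and are no independent check. Taken array by array, acute 3 was above all 6 other arrays for 38 of the 50 genes and control 3 for 30. Over all probe sets acute 3 was above all 6 for 14.3% and control 3 for 17.1%. Chronic 3 was above them for 12 of the 50, or 11 of the 49 without Ttr (22.4%), beside 21.2% of all probe sets. The choroid plexus markers were thus raised broadly on acute 3 and control 3. On chronic 3 the label rests on Ttr, Kcnj13 and a few further genes, so the 3 arrays are named here by their Ttr signal.

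Genes of the solute and ion transporters that make cerebrospinal fluid had a median difference of 0.34 over 18 genes. Besides Kcnj13, Slc4a5, a bicarbonate cotransporter of the fluid-facing membrane, stood at 5.96, 6.04 and 6.83 in controls, 5.84, 5.81 and 7.79 after acute MPTP, and 6.07, 6.07 and 6.26 after chronic MPTP. Its difference of 1.00 ± 0.90, a fold of just under 2, had no overlap, although chronic 3 exceeded the highest of the 6 by little. The sulphate transporter Slc13a4 differed by 0.86 ± 0.73 and the cation channel Trpv4 by 0.29 ± 0.21, both without overlap. The nucleoside and monoamine transporter Slc29a4 (0.86 ± 0.50) and the chloride channel protein Clic6 (0.83 ± 0.71) overlapped with the other arrays. Aqp1, the water channel of this epithelium, differed by 0.24 ± 0.34, and Kcne2, a potassium channel subunit, by 0.30 ± 0.37, and neither was raised on chronic 3 (6.23 and 5.91). Slc4a10 (-0.02 ± 0.03), which neurons also express, was among the 3 choroid plexus genes that were not higher, with Lrp2 and Cldn3.

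The secreted factors and receptors had the highest median of the 4 lists, 0.55 over 13 genes, all of which had a higher mean on the 3 arrays. Igf2, a growth factor that the choroid plexus releases into the fluid, was the only one of them besides Ttr without overlap, with a difference of 0.70 ± 0.54. Its values on control 3, acute 3 and chronic 3 were 8.88, 9.58 and 8.63, above the highest other array at 8.52. Klotho, Kl, a protein linked to phosphate balance and ageing, was at 7.83 on control 3 and 8.89 on acute 3 but lay within the range of the other arrays (6.45 to 7.11) on chronic 3. Sostdc1, a BMP and WNT antagonist, behaved alike, at 7.18, 8.37 and 6.16 on the 3 arrays against at most 6.22 on the others. Lbp, the lipopolysaccharide binding protein, was at 9.19, 9.58 and 8.13 against at most 8.23. Htr2c, the serotonin receptor of the choroid plexus, is also made by striatal neurons and differed by 0.30 ± 0.44.

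Among the vitamin carriers, Folr1, the folate receptor of the choroid plexus, was at 7.74 on control 3, 8.41 on acute 3 and 7.31 on chronic 3, and between 6.63 and 7.07 on the other arrays. The groups did not overlap, and the difference was 0.89 ± 0.62. The median of the 7 vitamin carriers was lower, at 0.20, and the folate carrier Slc19a1 (0.05 ± 0.04) and the endocytic receptor Lrp2 (-0.01 ± 0.06) differed least. Rdh5, a retinol dehydrogenase, was higher than the mean of arrays 1 and 2 by 0.50 on control 3 and by 0.84 on acute 3, and differed by -0.13 on chronic 3.

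Of 12 genes of epithelial identity, with a median of 0.41, Cldn1, a tight junction protein, was raised about equally on the 3 arrays. It was at 7.30, 7.68 and 7.53 on control 3, acute 3 and chronic 3, against a highest other value of 6.78, a difference of 0.98 ± 0.14. The endocytic adaptor Dab2 followed it (0.81 ± 0.32, no overlap). Both are also made outside the choroid plexus, as are Dcn and Cldn11 described below. Otx2, the homeobox factor that choroid plexus development needs, was at 6.63, 6.98 and 8.78 in controls, 6.02, 6.72 and 8.72 after acute MPTP, and 6.56, 7.45 and 6.98 after chronic MPTP. It was therefore high on control 3 and acute 3, while chronic 3 lay below chronic 2. Cldn2, a second claudin of this epithelium, was at 5.66, 6.18 and 5.14 on the 3 arrays against at most 5.22 on the others. The keratin Krt8 differed by 0.00 ± 0.17.

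Removing chronic 3 left control 3 and acute 3, the arrays with Ttr at or above 12, against the same 6. This contrast is not balanced over treatment, since chronic 1 and chronic 2 stay among the 6 and no chronic array is set against them. Of the 56 probe sets then at least 2-fold higher without overlap, 11 were choroid plexus genes: Ttr, Kcnj13, Otx2 (2.02), Lbp (1.72), Sostdc1 (1.71), Kl, Slc4a5, Slc13a4, Slc29a4, Clic6 and Folr1. The number of thalamus genes among them was 7 with and without chronic 3. Chronic 3 exceeded the mean of the 6 other arrays by 2.94 for Ttr and 1.23 for Kcnj13, and by 0.25 for Otx2, 0.09 for Sostdc1 and 0.32 for Clic6. With acute 3 left out in its place, the median of the epithelial identity genes was 0.18 in place of 0.41, and that of the secreted factors was 0.36 in place of 0.55.

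**Figure D2:**
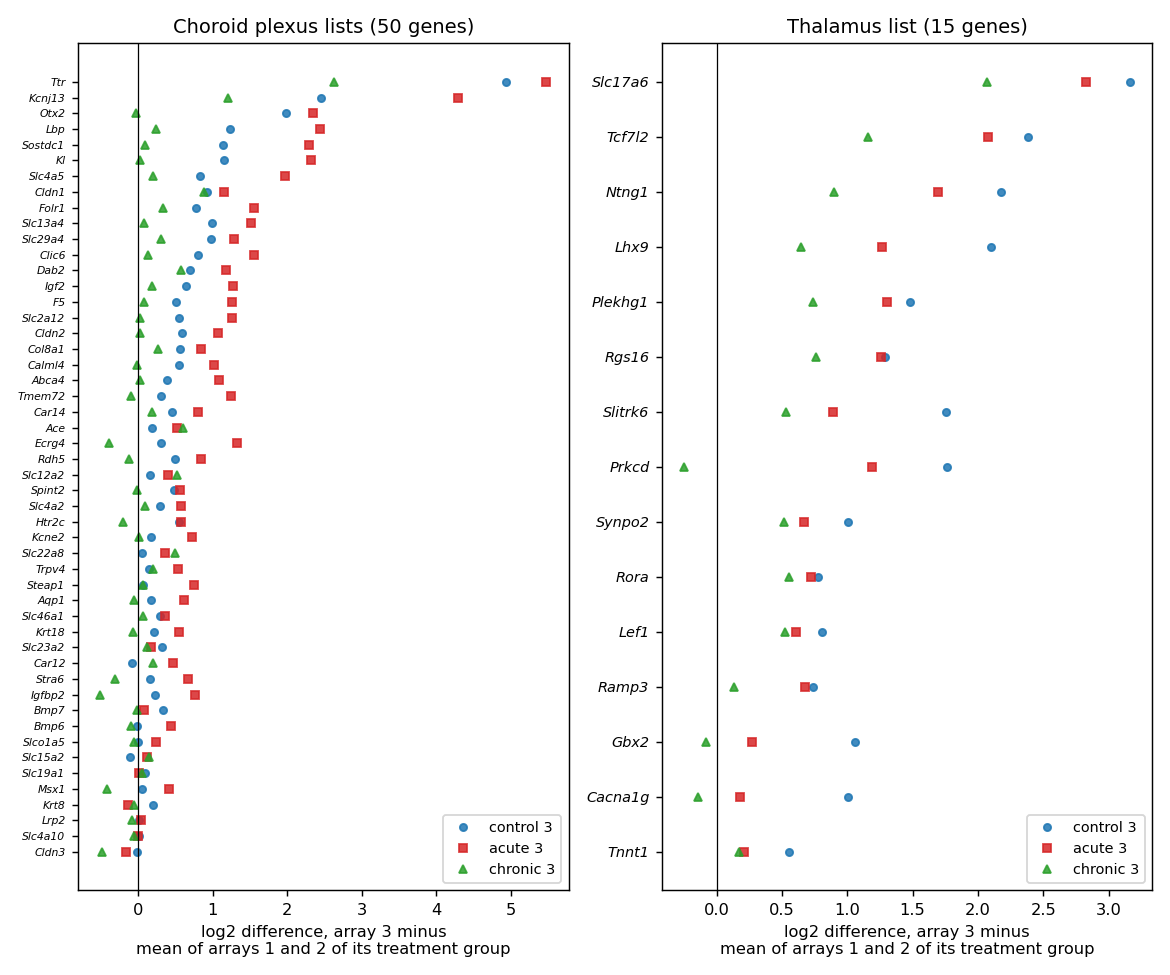
Log2 difference (x axis) between the number 3 array and the mean of arrays 1 and 2 of its own treatment group, for the 50 measured choroid plexus genes (left) and the 15 thalamus genes (right), 1 row per gene ordered by mean difference, with 1 point for each of the 3 arrays. Choroid plexus genes lie farthest to the right on acute 3 (median 0.76) and near 0 on chronic 3 (median 0.06), while thalamus genes lie farthest to the right on control 3 (median 1.29).

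With the 3 arrays kept, 7 of the 15 thalamus genes and 2 of the 50 choroid plexus genes passed 2-fold without overlap. With chronic 3 left out these counts were 7 and 11, among 56 of all 21780 probe sets. All 15 measured genes of the thalamus list had a higher mean on the 3 arrays, with a median difference of 0.90. Of them, 10 had no overlap and 7 also passed 2-fold, beside 4.62% and 0.0781% of all probe sets. Tcf7l2, a WNT pathway transcription factor of postmitotic thalamic neurons, was at 7.59, 8.57 and 10.46 in controls, 7.73, 7.71 and 9.80 after acute MPTP, and 7.86, 8.42 and 9.30 after chronic MPTP. Every array of the 3 exceeded every array of the 6, and the difference was 1.87 ± 0.64. Ntng1, a netrin relative on thalamic axons, was at 10.50, 9.73 and 9.03 on control 3, acute 3 and chronic 3, and at most 8.41 on the other arrays (1.59 ± 0.65). The LIM homeobox gene Lhx9 was at 8.43, 7.55 and 6.73 against at most 6.44 (1.34 ± 0.73).

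The remaining thalamus genes past 2-fold were Plekhg1 (1.17 ± 0.39), Rgs16, a regulator of G protein signalling (1.10 ± 0.30), and Slitrk6, a neuronal adhesion protein (1.06 ± 0.63). Lef1 (0.64 ± 0.15), Rora (0.68 ± 0.12) and Synpo2 (0.73 ± 0.25) had no overlap below 2-fold. The others overlapped with the 6 arrays. Prkcd, a protein kinase C of thalamic relay neurons, was at 10.28 on control 3 and 9.26 on acute 3, while chronic 3 at 8.29 lay below chronic 2 at 9.39. Gbx2, a homeobox gene of the developing thalamus, was raised mainly on control 3, at 7.74, with 7.02 on acute 3 and 6.66 on chronic 3 beside 6.60 to 6.76 on the other arrays. The T-type calcium channel gene Cacna1g was at 9.46 on control 3 and 7.90 on chronic 3.

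Several genes outside the thalamus list had the same profile. Cbln1 encodes a secreted organiser of synapses and was at 6.65, 7.63 and 9.23 in controls, 7.11, 6.80 and 8.79 after acute MPTP, and 6.04, 6.53 and 8.21 after chronic MPTP. Its difference of 1.95 ± 0.12 was close to equal in the 3 treatment groups. The homeobox gene Shox2 was at 7.57, 7.03 and 6.44 on control 3, acute 3 and chronic 3 against at most 5.98 on the other arrays (1.63 ± 0.39). Prox1 was at 9.28, 9.19 and 8.76 against at most 8.41 (1.11 ± 0.36), while the other genes of the hippocampus list had no such difference in common, the list median being 0.00.

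Ptpn3, a protein tyrosine phosphatase, was measured by 12 probe sets, all with a positive difference, from 0.39 to 1.35, of which 3 had no overlap and 2 passed 2-fold. The others past 2-fold were Stoml3, a stomatin family membrane protein (1.31 ± 0.49), Kcnc2, a fast voltage-gated potassium channel (1.09 ± 0.18), and Etnppl, a lipid metabolism enzyme of astrocytes (1.01 ± 0.55). Etnppl had the smallest difference of the 17 and fell below 2-fold or overlapped after quantile normalization.

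The 3 arrays did not stand in 1 order. Ttr and Kcnj13 were highest on acute 3, then control 3, then chronic 3, an order shared by 16.1% of all probe sets. The other 15 of the 17 higher probe sets were highest on control 3, then acute 3, then chronic 3, an order shared by 24.5% of all probe sets. Of the 50 choroid plexus genes, acute 3 was the highest of the 3 arrays for 38, control 3 for 5 and chronic 3 for 7. Of the 15 thalamus genes, control 3 was the highest for 14 and acute 3 for 1. Acute 3 was thus most often the highest for choroid plexus genes and control 3 for thalamus genes.

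Genes of other tissues around the striatum were read from their own lists. Septum genes had a median of 0.42 over 8 genes, 0 of them without overlap, beside 4.62% of all probe sets that were higher without overlap. Zic2, a zinc finger factor of septal neurons, was at 10.51 on control 3 and 9.60 on acute 3, but at 8.39 on chronic 3, below chronic 2 at 9.44 (1.35 ± 1.19). Within treatment groups the septum median was 1.18 on control 3, 0.71 on acute 3 and -0.30 on chronic 3, and it was 0.10 without control 3. With chronic 3 left out, 3 of the 8 (Zic1, Zic2 and Zic5) passed 2-fold without overlap, beside 56 of all 21780 probe sets. The septum median was then 0.81, and that of the 50 choroid plexus genes 0.53. Ependymal and motile cilium genes had a median of 0.23, with 21 of 24 higher in mean. Of the 24, 1 had no overlap (4.17%), near the 4.62% of all probe sets, and Foxj1, their master regulator, differed by 0.00 ± 0.33. The ependymal median lay below that of the 50 choroid plexus genes (0.38), a difference that was not tested.

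Hypothalamic and preoptic genes had a median of 0.02 over 16 genes, and the habenula list one of 0.09 over 7. Oxytocin, Oxt, was at 9.32 on control 3 and between 7.14 and 7.91 on all other arrays. The meningeal list had a median of 0.02, although the matrix protein decorin, Dcn, had no overlap, at 8.78, 8.60 and 8.67 on the 3 arrays against at most 7.97 (0.91 ± 0.13). Oligodendrocyte genes had a median of 0.24, with the myelin claudin Cldn11 raised evenly (0.62 ± 0.04, no overlap). Astrocyte genes had a median of 0.27. Agt, angiotensinogen, differed by 1.65 ± 1.09 with overlap, since control 2 at 10.98 and chronic 1 at 10.42 exceeded chronic 3 at 10.22.

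Genes of striatal neurons had median differences near 0. The 25 measured genes of striatal projection neurons had a median difference of -0.05, the 11 interneuron genes one of -0.02 and the 6 housekeeping genes one of 0.03. Drd1 and Drd2, the dopamine receptors of the direct and indirect pathways, differed by 0.04 ± 0.40 and -0.05 ± 0.16, and Ppp1r1b, whose product DARPP-32 relays dopamine signals, by -0.10 ± 0.27. The parvalbumin gene Pvalb differed by 1.18 ± 0.51 with overlap. Microglial genes (0.00) and endothelial genes (0.07) had medians near 0. Single arrays nevertheless went both ways. Chronic 3 was above all 6 other arrays for 16 of the 25 projection neuron genes, beside 21.2% of all probe sets, and control 3 was below all 6 for 14, beside 20.5%. Neither was alone in this. Among the 6 other arrays, chronic 1 was the highest for 9 of the 25 genes and chronic 2 for 12, and control 1 was the lowest for 23. The treatment comparison of these genes is given below.

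**Figure D3:**
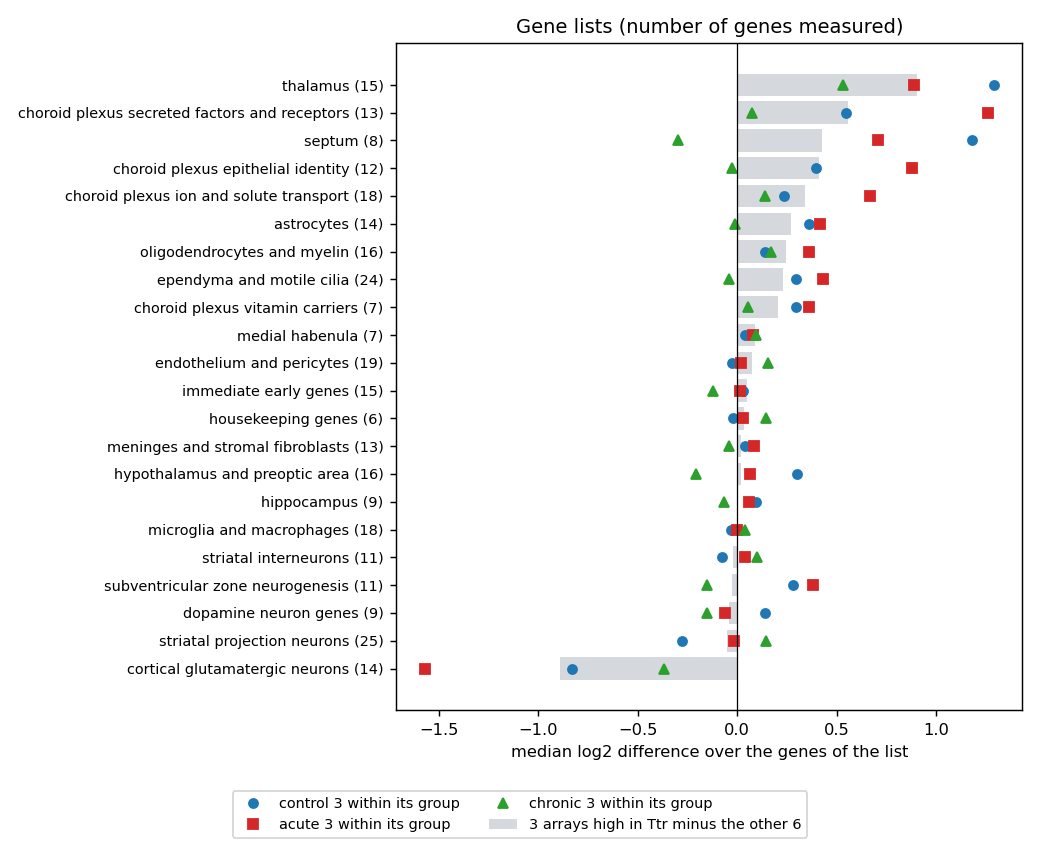
Median log2 difference (x axis) over the measured genes of each of 22 lists (y axis, number of genes in brackets), as a bar for the 3 arrays high in Ttr minus the other 6 and as points for each number 3 array minus arrays 1 and 2 of its treatment group. The thalamus list has the longest bar to the right (0.90) and the cortical list the longest to the left (-0.89).

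Genes of cortical glutamatergic neurons were lower on the 3 arrays, 12 of 14 in mean, with a median of -0.89. Of the 14, 3 were past 2-fold without overlap, beside 0.0597% of all probe sets. This side rests in part on the other 6 arrays. Tbr1, a cortical transcription factor, was at or above 9 on control 1 (9.89), acute 1 (9.12) and acute 2 (9.65), and between 5.69 and 7.26 on the remaining 6 arrays, the 3 arrays high in Ttr included. Tbr1 is itself in the cortical list, so a smaller cortical difference against arrays low in Tbr1 is partly built in. Against only the 3 other arrays with Tbr1 below 9 (control 2, chronic 1 and chronic 2), the cortical median was -0.33. These 3 hold no acute array, so the treatment groups are not balanced in this contrast. The count of probe sets past 2-fold then fell from 13 to 7 on the lower side and was 21 in place of 17 on the higher side.

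Slc17a7, the VGLUT1 gene, was at 12.27, 9.49 and 8.72 in controls, 11.75, 12.28 and 8.84 after acute MPTP, and 9.66, 9.60 and 8.14 after chronic MPTP. The 3 arrays were the lowest of all (-2.28 ± 0.84), and the difference was -1.02 against the arrays with Tbr1 below 9. Neurod6, a transcription factor of cortical projection neurons, differed by -1.73 ± 1.18 against the 6 and by -0.64 against the 3 arrays low in Tbr1, where it read 5.78 on each. The secreted protein Ccn3 (-1.74 ± 1.05), the myosin light chain Myl4 (-1.34 ± 0.58), the serine protease neurotrypsin, Prss12 (-1.27 ± 0.62), and Dkkl1 (-1.26 ± 0.69) also lost 2-fold against those 3 arrays. Nxph3, a neurexin ligand, was at 6.68, 6.63 and 6.78 on control 3, acute 3 and chronic 3 against 6.84 to 8.08 on the others (-0.75 ± 0.58), and at -0.21 against the arrays with Tbr1 below 9.

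Nr4a2, a nuclear receptor known from midbrain dopamine neurons and also made in the claustrum and deep cortex, was at 10.11, 8.66 and 7.90 in controls, 10.68, 10.76 and 6.94 after acute MPTP, and 8.91, 9.11 and 7.57 after chronic MPTP. It was lower without overlap by -2.23 ± 1.34, and by -1.42 against the arrays with Tbr1 below 9. The list of dopamine neuron genes that held it had a median of -0.04 over 9 genes, and Th, the rate-limiting enzyme of dopamine synthesis, differed by 0.38 ± 0.07 with overlap.

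The other genes past 2-fold on the lower side were in no list. Ankrd46, an ankyrin repeat protein, was at 9.82, 9.64 and 9.79 on control 3, acute 3 and chronic 3 and between 10.70 and 11.20 on the other arrays, a difference of -1.07 ± 0.08. Rpph1, the RNA of ribonuclease P, was at 12.56, 12.22 and 12.12 against 13.39 to 13.57 (-1.19 ± 0.31). The small nucleolar RNAs Snora73b (-1.66 ± 0.36), Snora73a (-1.32 ± 0.14), Snora44 (-1.18 ± 0.40) and Snora16a (-1.10 ± 0.45) completed the 13. Against the arrays with Tbr1 below 9, Ankrd46 differed by -1.14, Rpph1 by -1.17 and Snora73b by -1.46. Snora16a, at -0.97, was then just under 2-fold. The 3 cortical list genes among the 13 (Slc17a7, Neurod6 and Ccn3) differed less without the arrays high in Tbr1, as did Nr4a2, Myl4, Prss12 and Dkkl1, which are not in that list. Choosing arrays by low Tbr1 favours such a decrease for genes that vary with Tbr1. The small RNAs also differed by number among the 6 other arrays: Snora16a was higher on array 1 than on array 2 in all 3 treatment groups, by a mean of 1.20, which exceeds its difference above. The same held for Snora73b (0.90) and Snora73a (0.78), whereas Rpph1 differed by -0.03 and Snora44 by -0.31. Without control 3 the lower count was 21.

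**Figure D4:**
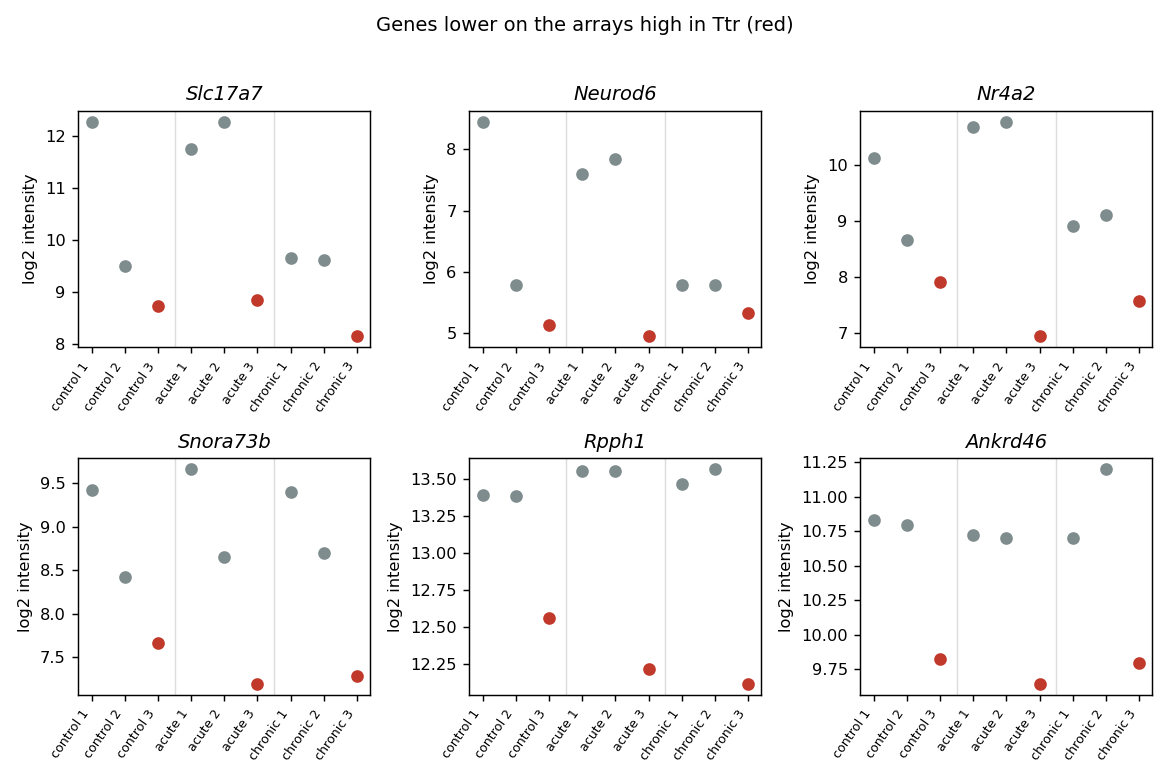
Log2 intensity (y axis) of 6 of the 13 genes lower on the arrays high in Ttr (red), on each of the 9 arrays (x axis), 1 point per array. Slc17a7, Neurod6 and Nr4a2 are highest on control 1, acute 1 and acute 2, whereas Rpph1 lies between 13.39 and 13.57 on the 6 grey arrays and below them on the 3 red ones.

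The treatment comparisons did not use the selection, since each group held 1 of the 3 arrays. With limma over 16335 probe sets and Benjamini-Hochberg adjustment, 0 passed in acute MPTP against control (0% of those tested, 139 at an unadjusted p under 0.05) and 0 in chronic MPTP against control (0%, 900 unadjusted). In chronic against acute MPTP, 2 passed (0.0122%, 837 unadjusted), named here after their values were seen. They were the immediate early genes Nr4a1 (2.38 ± 0.16, SE, adjusted p = 0.00131) and Arc (1.18 ± 0.12, SE, adjusted p = 0.0288). Arc did not pass with the replicate number as a block (adjusted p = 0.0619), where Tiparp did, or with the difference between the 3 and the 6 arrays as a term (adjusted p = 0.065). Leaving out arrays gave 5 without chronic 1, 2 without control 1 and 1, Nr4a1, without any one of the other 7. Without chronic 1, Nr4a1 also passed in acute against control, and Nr4a1 and Egr2 passed in chronic against control.

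Of the choroid plexus genes 46 were tested and of the thalamus genes 14, and 0 of either passed in any of the 3 comparisons. The lowest limma adjusted p among the choroid plexus genes was 0.876. Over these 46 genes the median log2 fold change was 0.12 in acute against control and -0.09 in chronic against control, beside 0.00 and -0.01 over all probe sets tested. For the thalamus genes it was -0.24 and -0.38. All 25 striatal projection neuron genes were higher in both comparisons, with medians of 0.29 and 0.52, and 0 passed. In chronic against control, 19 of these 25 had an unadjusted limma p under 0.05, beside 900 of all 16335 probe sets. Slc17a6 differed by -1.35 ± 1.05 (SE, limma adjusted p = 0.959) in chronic against control. With the difference between the 3 and the 6 arrays in the model its standard error was 0.22, and the limma adjusted p was 0.677. That term is the grouping that Ttr defined and Slc17a6 followed, so a smaller standard error for either gene is no finding. For Ttr the fold change in acute against control was 0.45 ± 1.85 (SE, limma adjusted p = 1), and its standard error with that term was 0.86. With the replicate block, 6 of the 14 thalamus genes and 7 of the 46 choroid plexus genes had an unadjusted p under 0.05 in chronic against control, beside 2128 of all 16335 probe sets, and 0 passed after adjustment (lowest limma adjusted p = 0.255).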

How the data were processed

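Total RNA of mouse striatum was measured on 9 single-colour Affymetrix arrays. Per the labels' protocols, biotinylated cDNA was made from 200 ng of RNA. The deposited values are log2 intensities per probe set, a scale read from the values themselves, with array medians from 6.85 to 6.90. Background correction and normalization are not given in the sources used here. All columns of values were used. Groups and replicate numbers came from the sample titles.

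Of 28815 probe sets, 21780 had 1 gene symbol in the platform annotation, 1605 had several and 5430 had none, and only the first were described. The 23 gene lists held 326 genes, 301 of them measured; the others were not analysed here. The probe set with the highest mean stood for a gene in a list. A probe set counted as higher or lower where the mean of the 3 arrays differed from that of the 6 by at least 2-fold and the groups did not overlap. This description has no test, because Ttr on the same arrays chose the groups. Named genes were the 12 largest differences in each direction past that rule, a fixed set of markers, and up to 4 members of each list past it or otherwise the 2 largest; further list members and the genes past the treatment threshold are named after their values were seen. The array sets, gene lists and rules were chosen with earlier results of these data known.

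Treatment was tested with limma 3.58.1 in R 4.3.3 (lmFit and eBayes, two-sided, Benjamini-Hochberg, threshold 0.05) on all 9 arrays. The 16335 probe sets with a mean at or above the 25th percentile (5.89) were tested, so list members below it were left out. The replicate numbers were checked for pairing on deviations from the group means. Arrays with the same number correlated positively in all 9 pairs (r from 0.157 to 0.673). Those with different numbers had r from -0.609 to 0.184 in 18 pairs. The ranges overlap. Deviations from a group mean sum to 0 within each group, so a positive r for the same number goes with a lower r for different numbers. The 2 ranges are therefore not independent of each other. The pairs of number 3 (0.246 to 0.673) are the arrays selected by Ttr. These values therefore do not establish that the numbers pair the arrays, and the labels do not say so. At most 6.34% of values were identical between 2 arrays. Alternatives were other folds, scalings, filters, thresholds for Ttr, a limit on Tbr1, a replicate block, a term for the arrays high in Ttr, and leaving out each array. The promoter windows are those of RefSeq on GRCm38.p6, cut to the 250 bases before the start. The number of arrays limits the precision throughout.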

Additional observations from a re-analysis of the deposited data

Results flagged for a closer look

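In some lists and genes the number 3 array lay above both other arrays of 1 treatment group and below both of another, which no test addressed: the differences between treatment groups were not tested, and each group has 1 such array. With 3 arrays a group, no check for single outlying arrays was made. Values are the number 3 array minus the mean of arrays 1 and 2 of its group, on the log2 scale, and for lists they refer to the mean over the list. Hypothalamic and preoptic genes were at 0.51 in control, 0.23 in acute MPTP and -0.22 in chronic MPTP. Striatal projection neuron genes read 0.14 in chronic MPTP and -0.29 in control, with Drd1 at 0.49 in chronic MPTP, -0.28 in control and -0.10 in acute MPTP, and Ppp1r1b at 0.11 in chronic MPTP and -0.41 in control. Dopamine neuron genes were at 0.042 in control, -0.27 in acute MPTP and -0.21 in chronic MPTP. Endothelial genes were at 0.12 in chronic MPTP and -0.065 in control, and microglial genes at 0.033 in chronic and -0.047 in acute MPTP.

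Of single genes, Rdh5, a retinol dehydrogenase of the vitamin carrier list, was at 0.50 in control, 0.84 in acute and -0.13 in chronic MPTP. The astrocyte gene Itih3 was at 1.12, 0.93 and -0.14 in the same order. The activity-dependent factor Npas4 was at 1.56 in acute MPTP and -0.33 in control.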

How the results depend on the processing

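The count of 17 probe sets higher on the arrays high in Ttr was 116 at 1.5-fold, 7 at 3-fold, 8 where 2-fold in each treatment group took the place of both the mean difference and the absence of overlap (7 of the 17 met both rules), and 56 with Ttr at or above 12. It ranged from 13 (without control 3) to 56 (without chronic 3) when each array was left out. The count of 13 lower probe sets was 45 at 1.5-fold, 5 at 3-fold, 6 under that rule of 2-fold in each treatment group (4 of the 13 met both) and 7 against the other arrays with Tbr1 below 9, and ranged from 12 to 21 (without control 3). The thalamus median of 0.90 was 1.32 with Ttr at or above 12, and ranged from 0.66 to 1.32 when each array was left out. In the treatment comparisons, a replicate block that pairs arrays by number gave 0, 0 and 2 passing probe sets for acute against control, chronic against control and chronic against acute MPTP. The last count was 1 with the arrays high in Ttr as a term and 1 without the filter. Leaving out each array gave 0 to 1, 0 to 2 and 1 to 5. No value whose 3 within-treatment differences shared a sign reversed its direction. Over all lists, 302 of 322 alternative medians stayed within 1 SD of the reported one, as did 644 of 693 alternative values of named genes. That SD is the one over the same 3 differences, and the alternatives share most arrays, so such counts are no independent support. Ttr at or above 12 and leaving out chronic 3 are the same contrast, and both are counted among the medians. Leaving out an array or limiting Tbr1 also ends the balance of treatment groups between the 3 and the 6, so treatment can enter those differences. Quantile normalization and centring arrays on their medians gave 18 and 19 higher probe sets and 13 lower ones each. The 3 arrays differ among themselves in which marker genes were raised. All of them share number 3, and the labels tie neither arrays to animals nor numbers to a batch. Tissue content and whatever the number stands for therefore cannot be told apart.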

Other observations

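Small structured RNAs form a group that the lists did not cover, and it was chosen after its values were seen. Of 54 small nucleolar and Cajal body RNAs with 1 symbol, 38 had a lower mean on the arrays high in Ttr, with a median difference of -0.14, beside -0.01 over all probe sets. Of the 54, 12 were lower without overlap (beside 3.68% of all probe sets), 4 of them past 2-fold, and 0 were higher without overlap. Rmrp, the RNA of the ribonuclease MRP, was at 9.69, 9.46 and 9.73 on control 3, acute 3 and chronic 3 and between 9.97 and 10.95 on the other arrays. Snord104 was at 9.38, 9.58 and 9.13 against 9.93 to 10.46, and Snora74a at 6.84, 6.75 and 6.88 against 7.13 to 8.13. Unlike the choroid plexus and thalamus genes, these RNAs were about as low on chronic 3 as on the other 2 of the 3 arrays: the median of the group within treatment groups was -0.10 on control 3, -0.12 on acute 3 and -0.17 on chronic 3. Among the other 6 arrays Rmrp and Snora74a were higher on array 1 than on array 2 in all 3 treatment groups, by means of 0.71 and 0.73.

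With Ttr at or above 12, 26 genes of no list passed 2-fold on the higher side, Ptpn3 with 8 probe sets. Among them were Rsph4a, a radial spoke protein of motile cilia (1.18), the inhibitory glycine receptor subunit Glra1 (1.63), and the transcription factor Ebf2 (1.07). Ebf2 was not raised on chronic 3, which differed from the mean of the 6 other arrays by -0.07.

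Probe sets without a symbol or with several, 5430 and 1605, were outside the description. Of these, 1 was higher and 5 were lower by the same 2-fold rule.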
